A study of Rattus norvegicus with 6 samples.

Results

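The kinesin and dynein motor genes were examined in polyA-selected RNA of cortical neural progenitors of the rat. Members were found by gene name, as names beginning with Kif and a digit, Kifc, Dync, Dynl, Dnah and a digit, or Klc and a digit. The pattern found 51 of the 17337 gene names in the tables. The cells came from cortices of Sprague Dawley rats at embryonic day 14, were grown untreated with bFGF and EGF, and were collected after the second passage. There is 1 condition. Biological replicate A gave the technical libraries A1 and A2, and biological replicate B gave B1 and B2, which makes 2 replicates and 4 libraries. The design text calls the biological replicates independent, and does not say which animals stand behind each.

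Kinesins and dyneins are ATP-driven motors that walk along microtubules. Most kinesins move toward the plus end, whereas cytoplasmic dynein moves toward the minus end, and dividing progenitors use both families to build the spindle, to carry organelles and to move the nucleus along the radial process. Axonemal dyneins bend motile cilia, which in the brain belong mainly to ependymal cells. The members were grouped by known role as 11 mitotic kinesins, 22 transport motors with their cargo-binding subunits, 6 dynein light chains, 1 axonemal dynein heavy chain and 11 other members. The group of transport motors held kinesin-1, kinesin-2 and kinesin-3 motors, kinesin light chains, the dendritic motor *Kifc2*, and the larger subunits of cytoplasmic dynein 1 and 2. Other genes of these families, among them *Kif1a*, *Kif4a*, *Kif14* and the remaining axonemal heavy chains, were not among the 51 names found. They were therefore not analysed here, and the groups are incomplete.

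Levels are in FPKM, that is, fragments corrected for transcript length and sequencing depth, and can therefore be compared between genes. Mean and SD are over the 2 replicates after the technical libraries of each were averaged. The read coverage that corresponds to 1 FPKM was 22.7 to 24.4 in A1, A2 and B1 and 6.83 in B2, so that B2 had 28.1% of the depth of B1. Defining markers of proliferating cells and neural progenitors were present, with medians of 11.8 and 289 FPKM over 8 and 7 genes, and those of microglia and endothelium had medians of 0.0115 and 0.254 FPKM. Markers of mesenchymal and meningeal cells were all higher in replicate B, with a summed level of 646 to 671 FPKM in the libraries of A and 2481 to 3008 FPKM in those of B. The summed level of the 7 progenitor markers was 20890 and 22985 FPKM in A1 and A2 and 9999 and 10768 FPKM in B1 and B2, and most of this difference was *Fabp7*, at a mean of 17678 FPKM in A and 6003 FPKM in B. *Fabp7*, *Hes5* and *Sox2* were lower in B without overlap, 3 of 7 markers (42.9%, against 32.0% of all genes), and *Nes*, *Vim* and *Slc1a3* were higher in B on average. Without B2 all 7 were lower in B. Because the RNA is from whole cultures, fewer cells of a type and less RNA per cell cannot be told apart. With 1 condition and 2 cultures there was no test between groups, and the values show how far the cultures lay apart.

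A mean of at least 1 FPKM was reached by 43 of the 51 members (84.3%), against 60.5% of all genes. Of these, 25 had at least 10 FPKM. The median over all 51 members was 9.67 FPKM for culture A and 9.05 FPKM for culture B, against 3.59 and 3.80 FPKM over all genes. The 8 members below 1 FPKM were *Dnah1*, *Kif2b*, *Kif9*, *Kif12*, *Kif26b*, *Kif27*, *Kif28p* and *Klc3*. *Kif2b*, a kinesin-13 of the spindle, was listed at 0 FPKM in all 4 libraries, and *Kif12* was above 0 only in A2.

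**Figure D1:**
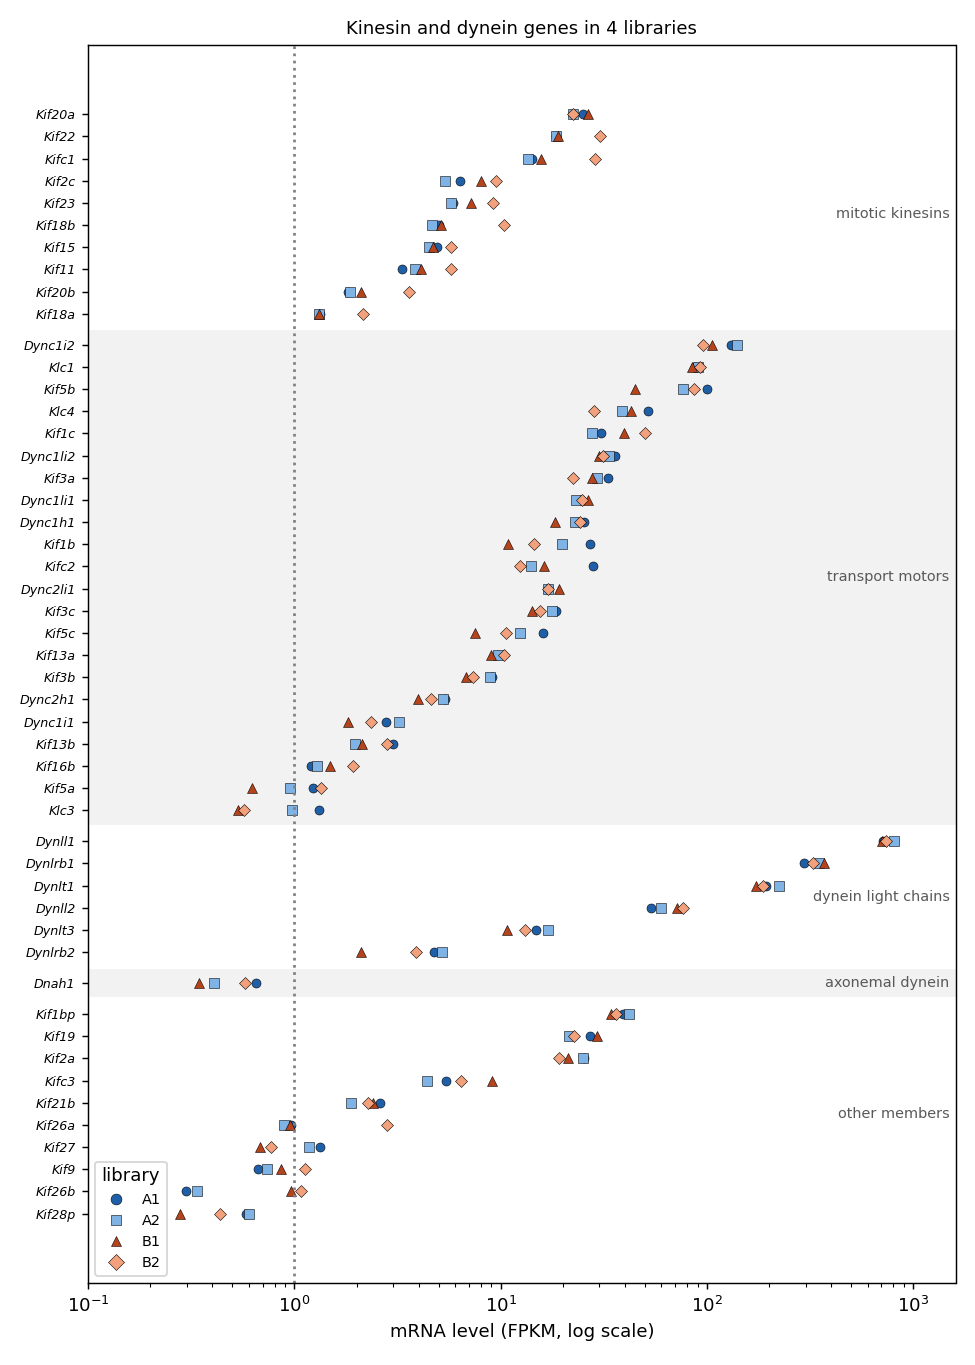
mRNA level of 49 kinesin and dynein genes, each in 4 libraries, on a logarithmic FPKM axis, grouped by role and ordered by mean within a group. *Kif2b* and *Kif12*, at or near 0, are left out and the dotted line marks 1 FPKM. By their means, dynein light chains reach 739 FPKM, transport motors lie mostly between 1 and 118 FPKM and mitotic kinesins between 1 and 25 FPKM, and *Dnah1* lies below 1 FPKM in every library.

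The group medians were ordered in the same way in each library. The median of the transport motors was 21.5, 17.4, 15.2 and 15.0 FPKM in A1, A2, B1 and B2, and that of the mitotic kinesins was 5.03, 4.66, 5.16 and 9.14 FPKM. The median of the transport motors was therefore above that of the mitotic kinesins in all 4 libraries. The replicate medians did not overlap, at 17.1 ± 3.52 against 6.30 ± 2.07 FPKM (SD, n = 2). Single genes of the groups did overlap, with means of 0.846 to 118 FPKM and 0 to 24.1 FPKM. The ratio between the group medians was 4.27 in A1 and 1.64 in B2, so its size differed more between libraries than its direction. Among all genes with at least 1 FPKM the median was 16.1 to 16.5 FPKM. With the same minimum, the medians were 17.9 FPKM for transport motors and 6.64 FPKM for mitotic kinesins. Without a minimum the median of all genes was 3.45 to 3.92 FPKM, below both groups.

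The dynein light chains held the highest levels. *Dynll1* encodes the LC8 light chain, which also binds many proteins outside dynein, and is located in rn6 on chromosome 12, plus strand, 47074200 to 47076573. It reached 710 and 801 FPKM in A1 and A2 and 707 and 740 FPKM in B1 and B2, a mean of 739 ± 23.1 FPKM (SD, n = 2), rank 120 of all genes. The libraries of the 2 cultures overlapped. *Dynlrb1*, a roadblock light chain, had 295, 347, 370 and 328 FPKM in A1, A2, B1 and B2, which also overlapped. *Dynlt1*, a Tctex light chain, had 192, 224, 174 and 186 FPKM, with both libraries of B just under those of A. How reads shared with near-identical copies of such short genes were counted is not given in the sources used here, which leaves these levels uncertain.

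Each light chain had a paralog at a much lower level. *Dynll2*, the second LC8 gene, had 53.3 and 59.8 FPKM in A1 and A2 and 71.7 and 76.7 FPKM in B1 and B2, and thus was higher in B without overlap. *Dynlt3* had 14.7, 16.9, 10.8 and 13.2 FPKM in the same order of libraries and was lower in B. *Dynlrb2*, the roadblock gene linked to motile cilia and testis, had 4.75, 5.16, 2.10 and 3.87 FPKM and was also lower in B. The ratio of *Dynlrb1* to *Dynlrb2* ranged from 62.2 in A1 to 176 in B1, and that of *Dynll1* to *Dynll2* from 9.65 to 13.4. *Dynlt1* exceeded *Dynlt3* by 13.04 to 16.1 times. The preferred paralog was thus the same in every library, while only the roadblock ratio moved by more than 2-fold.

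Cytoplasmic dynein 1 is built on the heavy chain *Dync1h1*, whose motor domain is shared by all its cargo. *Dync1h1*, on chromosome 6 from 134958854 to 135085769 (plus strand), had 25.2, 22.8, 18.3 and 24.2 FPKM in A1, A2, B1 and B2. The mean was 22.6 ± 1.94 FPKM (SD, n = 2), and the cultures overlapped. The listed span of *Hsp90aa1*, at 496 FPKM, overlaps *Dync1h1* on the other strand, and the sources do not say whether strand was used in counting. *Dynll1* was 28.1 to 38.6 times higher than *Dync1h1*, a larger surplus than any other subunit of the complex showed.

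The intermediate chains join the heavy chain to dynactin. *Dync1i2*, the form of most cells, had 130 and 139 FPKM in A1 and A2 and 105 and 95.3 FPKM in B1 and B2. *Dync1i1*, the form known from neurons, had 2.77 and 3.22 FPKM in A and 1.81 and 2.35 FPKM in B. Both were lower in B without overlap, and the ratio of *Dync1i2* to *Dync1i1* stayed between 40.6 and 58.3. *Dync1i1* lies inside the span that the tables list for *Col1a2* on the same strand, a collagen gene at 140 to 143 FPKM in A and 637 to 798 FPKM in B. The light intermediate chains, which bind cargo adaptors, were close to each other. *Dync1li2* had 35.7, 33.3, 30.0 and 31.3 FPKM and *Dync1li1* had 24.5, 23.2, 26.5 and 24.8 FPKM in A1, A2, B1 and B2. *Dync1li2* was the higher in every library, by 1.13 to 1.46 times.

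Dynein 2 drives retrograde transport in the primary cilium. Its heavy chain *Dync2h1* had 5.36, 5.27, 3.97 and 4.597 FPKM in A1, A2, B1 and B2 and was lower in B without overlap. The light intermediate chain *Dync2li1* had 19.1 FPKM in B1 and 16.9 to 17.02 FPKM in the other 3 libraries, so that B1 stood apart. The heavy chain of dynein 1 exceeded that of dynein 2 by 4.33 to 5.27 times. All 15 genes in the tables from a list of intraflagellar transport were above 1 FPKM, from 4.92 FPKM for *Wdr19* to 54.6 FPKM for *Ift20*.

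Kinesin-1 carries vesicles and organelles and consists of heavy chains and light chains. *Kif5b*, the heavy chain of most cells, found on chromosome 17 from 54181847 to 54212079 (plus strand), had 100.2, 76.3, 45.0 and 86.3 FPKM in A1, A2, B1 and B2. The technical libraries of replicate B were 1.92-fold apart, so the difference between the cultures was within the technical spread. The neuronal forms were lower. *Kif5c* had 16.0 and 12.4 FPKM in A and 7.51 and 10.6 FPKM in B, and *Kif5a* had 1.23, 0.954, 0.621 and 1.35 FPKM. *Kif5b* was 5.98 to 8.16 times *Kif5c* and 64.1 to 81.3 times *Kif5a*, and the order of the 3 genes was the same in every library. Of the light chains, *Klc1* had 87.7, 90.6, 84.3 and 92.4 FPKM, with overlapping cultures. *Klc4* had 51.5, 38.6, 42.7 and 28.3 FPKM, and *Klc3* had a mean of 0.846 ± 0.416 FPKM (SD, n = 2). The listed span of *Klc3* shares 1051 bases with that of *Ercc2* on the other strand, at 39.9 FPKM.

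**Figure D2:**
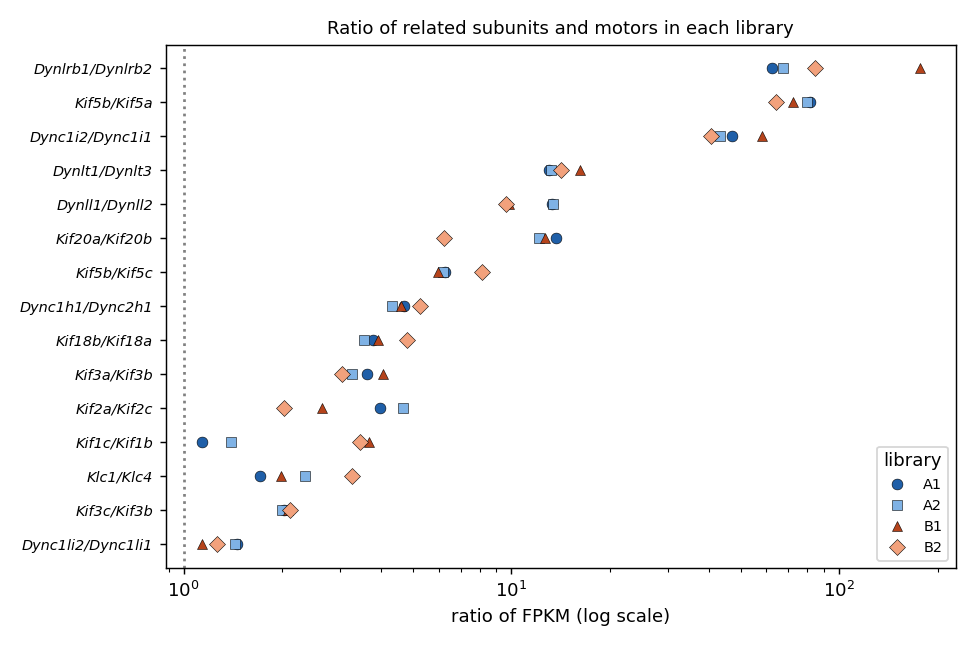
Ratio of FPKM between related motors or subunits, each computed within a library, on a logarithmic axis with a dotted line at 1. All 15 ratios lie above 1 in all 4 libraries. *Kif1c* over *Kif1b* separates the cultures (1.14 and 1.40 in A, 3.68 and 3.46 in B), while *Kif3c* over *Kif3b* stays between 2.00 and 2.12.

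Kinesin-2 and kinesin-3 motors were present at intermediate levels. Kinesin-2 carries cargo into the primary cilium as a trimer of *Kif3a*, *Kif3b* and the adaptor *Kifap3*, and *Kif3c* is a related neuronal partner of *Kif3a*. Their means were 28.1 ± 4.31 FPKM for *Kif3a*, 16.5 ± 2.31 for *Kif3c* and 8.04 ± 1.37 for *Kif3b* (SD, n = 2), and *Kifap3* had 22.01 to 25.3 FPKM. All 3 motor genes were lower in B without overlap, as were 32.0% of all genes, while the ratio of *Kif3c* to *Kif3b* moved only from 2.00 to 2.12. Among kinesin-3 motors *Kif1c*, which carries vesicles in many cell types, had 30.7 and 27.6 FPKM in A and 39.7 and 50.2 FPKM in B. *Kif1b*, a motor of mitochondria and synaptic vesicle precursors, went the other way, with 26.9 and 19.7 FPKM in A and 10.8 and 14.5 FPKM in B. The ratio of *Kif1c* to *Kif1b* was 1.14 and 1.40 in A and 3.68 and 3.46 in B. *Kif13a*, *Kif13b* and *Kif16b*, motors of endosomes and other vesicles, had means of 9.68, 2.47 and 1.48 FPKM.

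Of the 11 mitotic kinesins, 10 had at least 1 FPKM, and their means ranged from 1.53 to 24.1 FPKM. *Kif20a*, which brings the chromosomal passenger complex to the central spindle, had the highest mean, with 24.9, 22.5, 26.5 and 22.4 FPKM in A1, A2, B1 and B2. In B2 it lay below *Kif22* and *Kifc1*. The chromokinesin *Kif22* had 18.6, 18.6, 19.0 and 30.3 FPKM. *Kifc1*, a minus-end motor that focuses spindle poles, had 14.1, 13.5, 15.6 and 28.7 FPKM. For both *Kif22* and *Kifc1* the libraries of A and B1 lay close together and B2 alone was high. *Kif2c*, the depolymerase that corrects kinetochore attachments, had 6.36 and 5.35 FPKM in A and 8.02 and 9.47 FPKM in B, and *Kif23*, a subunit of centralspindlin in cytokinesis, had 5.88, 5.71, 7.15 and 9.14 FPKM. In these cases both libraries of B were above both of A. *Kif18b*, *Kif15*, *Kif11*, *Kif20b* and *Kif18a*, which regulate spindle length, spindle bipolarity and abscission, had means from 6.30 down to 1.53 FPKM.

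The 2 cultures were then compared over the members. A gene was called where log2(FPKM + 1) differed by 1 or more between the cultures, the libraries did not overlap and the mean reached 1 FPKM. By this rule 0 of 43 members were called, against 6.15% of the 10481 genes examined, with 4.58% higher and 1.57% lower in B. Of the markers given above, 7 of 8 for mesenchymal and meningeal cells and 2 of 7 for neural progenitors were called. With a difference of at least 0.5, 5 members were higher in B (11.6%, against 11.2% of all genes) and 3 were lower (6.98%, against 9.77%). These shares are near the background, so the members as a whole were not set apart from other genes. The higher members were *Kif1c*, *Kifc1*, *Kifc3*, *Kif18b* and *Kif2c*, by 1.49-fold to 1.61-fold, and the lower ones were *Kif1b*, *Dynlrb2* and *Kif5c*, by 1.85-fold, 1.66-fold and 1.57-fold. These folds are ratios of mean FPKM. For *Kifc1* and *Kif18b* they rested on B2, since the log2 differences of 0.59 and 0.52 were 0.17 and 0.08 without it. B1 and B2 were 1.83-fold apart for *Kifc1*, 2.01-fold for *Kif18b* and 1.84-fold for *Dynlrb2*, more than the cultures were.

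The groups differed in direction. All 10 mitotic kinesins with at least 1 FPKM were higher in B on average, against 46.2% of all genes. Their median log2 difference was 0.39, against -0.03 for all genes. In 7 of 10 both libraries of B were above both of A, against 28.1% of all genes. The median was 0.14 without B2, with 9 of 10 higher, against 48.0% of all genes. Of the 9, *Kif15* and *Kif22* differed by only 0.006 and 0.03. B1 alone was above both libraries of A in 8 of 10, against 40.2% of all genes. Most of the size of the difference thus came from B2, while its direction was present in B1 for most of the 10, in some by very little. The 10 mitotic partners in the tables were also all higher in B, against 46.2% of all genes, with a median of 0.57. Without B2 the median was 0.34, with 8 of 10 higher, against 48.0% of all genes, and 2 lower. Among them was *Prc1*, the crosslinker of the central spindle, at 9.81, 9.95, 14.5 and 20.6 FPKM. The summed level of 8 markers of proliferating cells, of which *Plk1* and *Aurkb* are also among the partners, was 95.6 and 103 FPKM in A1 and A2 and 121 and 176 FPKM in B1 and B2. Its part in the values of the mitotic kinesins was not tested, and the same holds for the lower depth of B2 and for the mesenchymal markers given above.

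**Figure D3:**
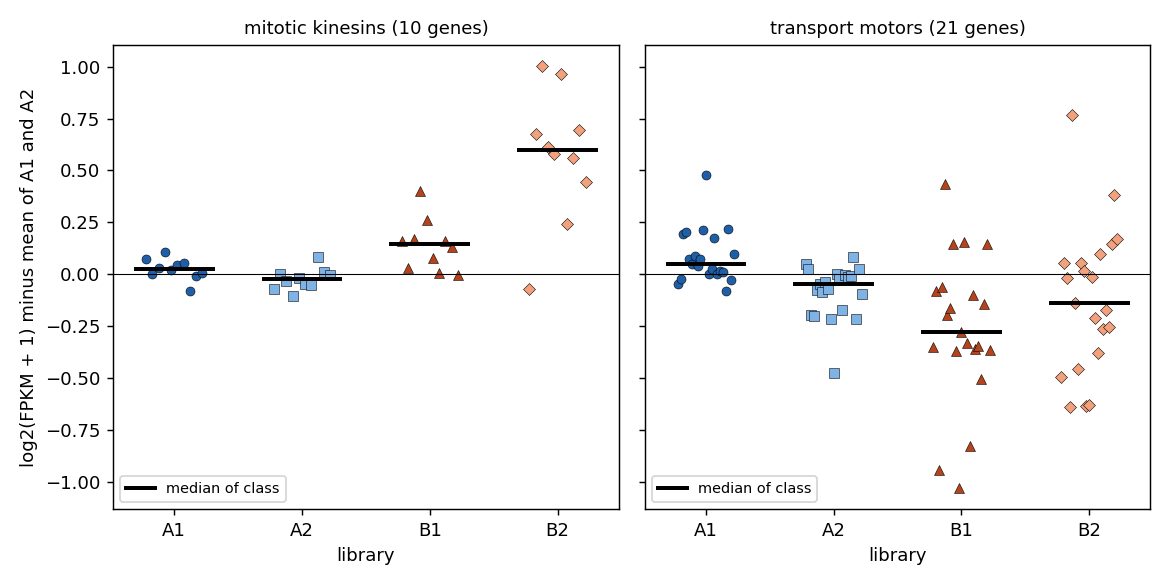
log2(FPKM + 1) of each gene minus its mean over A1 and A2, shown by library for 10 mitotic kinesins and 21 transport motors with at least 1 FPKM, where each point is a gene and the black bar is the group median. The mitotic kinesins lie close to 0 in A1 and A2 with their highest median in B2, and most transport motors lie below 0 in B1.

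Of the 21 transport motors with at least 1 FPKM, 16 were lower in B on average (76.2%, against 53.8% of all genes). The median log2 difference was -0.26, against -0.03 for all genes. In 9 of 21 both libraries of B were below both of A (42.9%, against 32.0% of all genes), and in 3 of 21 they were above (14.3%, against 28.1%). In B1 alone 14 of 21 were below both libraries of A (66.7%, against 43.9%). When the libraries were scaled by their median ratio, 14 were lower, since *Klc1* and *Kif13b*, whose log2 differences were -0.01 and -0.00015, changed sign. The median was -0.28 without B2, -0.12 without A1 and -0.14 without B1, so its size depended on A1 and B1. Markers of neurons had summed levels of 167 and 191 FPKM in A1 and A2 and 145 and 165 FPKM in B1 and B2. Of those at 1 FPKM or more, 5 of 7 were lower in B without overlap, against 32.0% of all genes. The part of the neuron markers in these values was not tested, and the same holds for the mesenchymal and progenitor markers given above. *Rbfox3*, a marker of mature neurons, had 3.62, 3.34, 3.09 and 1.95 FPKM.

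**Figure D4:**
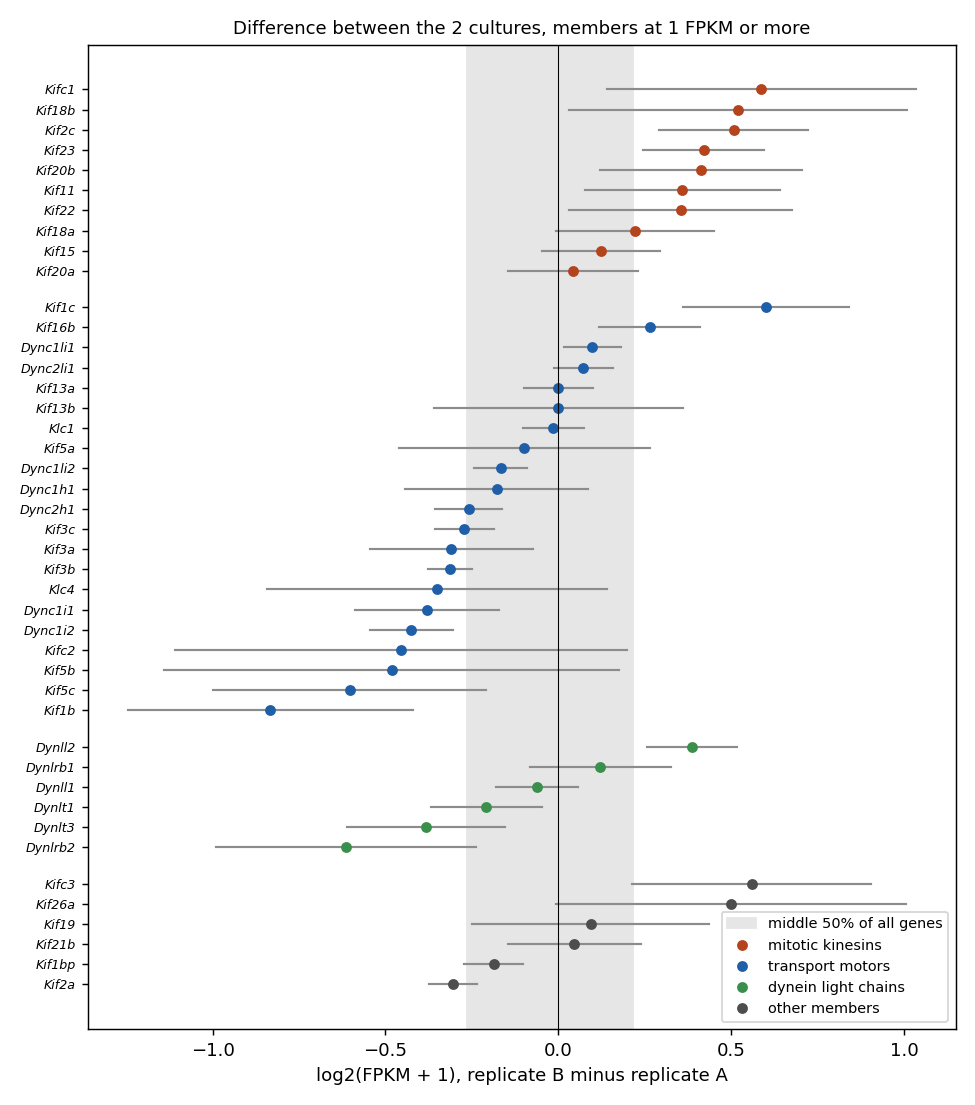
Difference between replicate B and replicate A on the log2(FPKM + 1) scale for the 43 members with at least 1 FPKM, where the point is the difference of the replicate means and the line spans the 4 pairs of 1 library of B and 1 of A. The grey band holds the middle 50% of all genes with at least 1 FPKM. All 10 mitotic kinesins lie right of 0, and 16 of 21 transport motors lie left of it. Of all genes with at least 1 FPKM, 46.2% were higher and 53.8% lower in B.

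The promoters of the mitotic kinesins were read because of the direction these genes shared on average, although 0 of 10 were called. Many genes of the late cell cycle carry a CHR element, with the letters TTTGAA, and CCAAT boxes near their start, which bind the DREAM and MuvB complexes and NF-Y. RefSeq promoter sequences of the GRCr8 assembly were matched for 39 of the 51 members, 1 of them through an older symbol, and the 250 bases before the annotated start were searched on both strands. TTTGAA was found for 5 of 10 mitotic kinesins and 0 of 18 transport motors, and 16.2% of all 33469 promoters held it. It was also found for 0 of 3 light chains, for *Dnah1*, and for 2 of 7 other members, *Kif26b* and *Kif28p*. CCAAT was found for 6 of 10 and 4 of 18, against 34.0% of all promoters, and also for 3 of 3 light chains, 2 of 7 other members and not for *Dnah1*. GGCGGG, a GC box, was found for 6 of 10 mitotic kinesins and 15 of 18 transport motors, against 29.4%. TTCGAA, a CHR variant that is its own reverse complement, was found for 0 of 10 and 0 of 18, against 1.40%. TATAAA was found for 0 of 10 and 3 of 18, against 12.9%. CACTTCCGG, an ETS site, was found for 0 of 10 and 0 of 18, and the X-box of ciliary genes, searched as 1 fixed form, for 0 of 10 and 1 of 18, against 1.52% and 0.406% of all promoters. A member was counted once where any of its promoters held the motif, and *Kif2c* and *Klc1* had 2 and 3 promoters, while the percentages are of promoters and not of genes. Matches of different motifs may share bases. The 7 motifs were chosen with the levels known. A match is a run of letters and not a measured binding site, and the annotated start may not be the start used in these cells.

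The 5 mitotic promoters with TTTGAA are shown because they carry that count, beside *Kif5b* as the most abundant heavy chain of the transport motors. Each is the 150 bases before the annotated start, written 5′ to 3′ on the strand of the gene, with the CHR letters and the CCAAT box, or the reverse complement of either, in capitals. *Kif23* is chr8:71320585-71320734 on the minus strand, *Kifc1* chr20:5000779-5000928 on the plus strand, *Kif22* chr1:191080879-191081028 on the minus strand, *Kif20b* chr1:241840866-241841015 on the plus strand, *Kif15* chr8:131479254-131479403 on the plus strand and *Kif5b* chr17:56185236-56185385 on the plus strand, all in GRCr8.
Kif23: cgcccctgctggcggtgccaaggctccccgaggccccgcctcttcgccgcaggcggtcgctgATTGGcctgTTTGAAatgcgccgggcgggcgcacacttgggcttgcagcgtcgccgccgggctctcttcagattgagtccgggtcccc
Kifc1: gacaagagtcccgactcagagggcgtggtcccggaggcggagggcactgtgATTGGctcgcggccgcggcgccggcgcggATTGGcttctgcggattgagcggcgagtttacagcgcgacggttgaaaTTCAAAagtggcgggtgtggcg
Kif22: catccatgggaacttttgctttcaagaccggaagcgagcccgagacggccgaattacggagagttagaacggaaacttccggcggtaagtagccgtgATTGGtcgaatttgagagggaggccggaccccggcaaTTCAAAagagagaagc
Kif20b: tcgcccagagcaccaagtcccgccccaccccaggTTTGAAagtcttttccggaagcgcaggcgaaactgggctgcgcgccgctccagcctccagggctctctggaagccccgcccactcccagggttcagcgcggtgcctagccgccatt
Kif15: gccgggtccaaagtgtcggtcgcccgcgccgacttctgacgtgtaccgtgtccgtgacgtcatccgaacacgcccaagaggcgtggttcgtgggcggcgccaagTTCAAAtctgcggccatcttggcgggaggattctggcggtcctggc
Kif5b: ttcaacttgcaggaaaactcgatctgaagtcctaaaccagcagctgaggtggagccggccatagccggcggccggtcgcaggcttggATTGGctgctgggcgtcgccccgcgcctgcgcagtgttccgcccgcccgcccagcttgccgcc

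In *Kif23* a CCAAT box begins at position -88 and the CHR letters follow at -79, counted from -1 at the last base before the start. *Kifc1* holds CCAAT boxes at -99 and -70 and CHR letters at -22, and *Kif22* holds a CCAAT box at -53 within the printed window and CHR letters at -16. *Kif20b* holds CHR letters at -116 and a CCAAT box at -155, just before the printed bases. In these 4 promoters a CCAAT box lies upstream of the CHR letters. *Kif15* holds CHR letters at -46 and -249 and no CCAAT box in the 250 bases. Both libraries of B were above both of A for 4 of the 5 members with TTTGAA and 3 of the 5 without it, against 28.1% of all genes. Of the former, *Kif22*, *Kifc1* and *Kif20b* had log2 differences of only 0.03, 0.17 and 0.13 without B2.

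The axonemal heavy chain found by name was *Dnah1*, a subunit of the inner arms, on chromosome 16 from 7345978 to 7406951 (minus strand). Its level was 0.649, 0.409, 0.345 and 0.576 FPKM in A1, A2, B1 and B2, with read coverage from 3.94 in B2 to 15.8 in A1. The cultures overlapped, and the mean of 0.494 ± 0.0483 FPKM (SD, n = 2) was 45.8 times lower than that of *Dync1h1*. The other genes of motile cilia were not all this low. Of 17 axonemal partners in the tables, 14 had at least 1 FPKM, with a median of 3.36 FPKM over the 17. *Foxj1*, the transcription factor of motile ciliogenesis, had 28.5, 31.6, 30.6 and 45.5 FPKM, and *Dnai1*, an intermediate chain of the outer arms, had 3.09, 3.09, 1.87 and 1.21 FPKM. Of the 14 partners, 7 were lower in B without overlap, against 32.0% of all genes, among them *Ccdc39*, a ruler of the axoneme, at 10.9, 11.2, 5.12 and 5.40 FPKM.

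Kinesins linked to cilia gave a mixed picture. *Kif19*, a kinesin-8 that limits the length of motile cilia, had 27.0, 21.3, 29.2 and 22.6 FPKM, with overlapping cultures. Its listed span shares 415 bases with that of *Btbd17* on the other strand, at 129.2 FPKM, and reads of the pair cannot be told apart if strand was not used. *Kif27* and *Kif9*, both linked to motile cilia, had means of 0.991 ± 0.376 and 0.845 ± 0.204 FPKM (SD, n = 2). *Kif27* was lower and *Kif9* higher in B without overlap. *Kif2a*, a depolymerase of kinesin-13 that acts in neurons as well as in mitosis, had 25.2 and 25.1 FPKM in A and 21.2 and 19.2 FPKM in B. It was lower in B, whereas the mitotic kinesin-13 *Kif2c* was higher, and their ratio was 3.96 and 4.68 in A and 2.64 and 2.03 in B.

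The remaining members were *Kif1bp*, *Kifc3*, *Kif21b*, *Kif26a*, *Kif26b*, *Kif28p* and *Kif12*. *Kif1bp*, which binds several kinesins and is no motor, had a mean of 37.8 ± 3.55 FPKM, and *Kif21b*, a regulator of microtubule growth, 2.29 ± 0.0619 FPKM (SD, n = 2). *Kifc3*, a minus-end motor of epithelial junctions, had 5.42 and 4.38 FPKM in A and 9.08 and 6.44 FPKM in B. *Kif26b*, an atypical kinesin of mesenchyme, had 0.299 and 0.338 FPKM in A and 0.957 and 1.08 FPKM in B. Both were higher in B without overlap, as were 28.1% of all genes with at least 1 FPKM, a mean that *Kif26b* did not reach. The 8 mesenchymal and meningeal markers were also higher in B without overlap, and their part in these values was not tested.

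Of the partners of dynein and kinesin, all 9 dynactin genes were present, from 18.2 FPKM for *Dctn4* to 172 FPKM for *Dctn2*, and 0 of 9 were called as differing between the cultures. At a share of 6.15% over all genes, a count of 0 or 1 in lists of this size is near the background, here and for the lists that follow. Among 10 dynein regulators and adaptors *Hook1*, an adaptor of endosomal cargo, was called, with 11.2 and 11.0 FPKM in A and 3.72 and 4.27 FPKM in B. *Nde1*, a dynein regulator needed for progenitor divisions, had 13.4 and 13.9 FPKM in A and 20.1 and 22.1 FPKM in B. *Pafah1b1*, which encodes the dynein regulator LIS1, had 35.2, 40.3, 35.4 and 32.4 FPKM, with overlapping cultures. Of 8 kinesin adaptors 0 were called, and their levels ran from 12.1 FPKM for *Trak2* to 74.3 FPKM for *Clstn1*.

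The technical libraries bound how closely these values can be read. In replicate A, 2 of 43 members were at least 1.5-fold apart between libraries, *Kifc2* with 28.0 and 13.9 FPKM and *Kif13b* with 2.996 and 1.96 FPKM, against 2.81% of all genes. In replicate B there were 10 of 43 (23.3%, against 17.7% of all genes), of which 5 were mitotic kinesins that were higher in B2. *Kif26a* was the farthest apart, with 0.947 FPKM in B1 and 2.80 FPKM in B2.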

How the data were processed

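PolyA-selected RNA of untreated cortical neural progenitors was examined in 4 libraries, A1 and A2 of biological replicate A and B1 and B2 of biological replicate B. Start-seq samples of the series (2) were not analysed here.

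Alignment by the authors was to rn6, using STAR. The submitters' processing notes also name cutadapt, HISAT and StringTie, and the tables have the layout of StringTie, while the methods name Rsubread and DESeq2 for FPKM. Versions and the use of strand are not given in the sources used here. FPKM values were used as deposited by the authors, as fragments scaled to transcript length and library depth. TPM values, also made by the authors, served as an alternative. The deposited coverage, the mean read depth over a gene, is not scaled for depth and its ratio to FPKM gave the relative depth of the libraries. Coverage gives no read counts, so that no counting intervals were computed.

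Entries with the same gene name were added up, technical libraries were averaged within a replicate, and mean and SD are over the replicates. Differences between replicates were computed as log2(FPKM + 1), with a pseudocount of 1, over genes whose mean reached 1 FPKM. A gene was called when the absolute difference was at least 1 and the libraries of A and B did not overlap. The same rule was applied to all genes, and its share of calls is the background. No p-values were computed. The scripts were tested on simulated data.

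Members were taken by name and grouped by known role. Values in every library were given for the 5 highest mitotic and transport members, the axonemal member, all dynein subunits, the kinesin-1 heavy chains and called members. Other members that are named with values were chosen after the values were seen. The members, the lists of partners and markers and the motifs were chosen with earlier results of these data known. Alternatives were another unit, pseudocount, filter, grouping and scaling, and the omission of each library or replicate. Promoters were taken from RefSeq tables of GRCr8, and rn6 coordinates from the deposited tables. Python 3.11.15, pandas 2.3.3, numpy 2.4.6 and matplotlib 3.10.9 were used.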

Additional observations from a re-analysis of the deposited data

Results flagged for a closer look

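Among the 43 members with at least 1 FPKM, 7 (16.3%) had 1 library far from the other 3, against 5.62% of all genes. Relative to the spread of all 4, the distance of that library to its neighbour exceeded Dixon's critical value, which chance passes for about 1 in 20 groups of independent values. The libraries are technical pairs of 2 cultures and not independent, so this rate does not hold here. In 6 of the 7 the library apart was B2, which had the lowest depth, and its value was the highest. These were *Kif22* at 30.3 FPKM, *Kifc1* at 28.7 FPKM, *Kif18b* at 10.4 FPKM, *Kif20b* at 3.60 FPKM and *Kif18a* at 2.16 FPKM, all mitotic kinesins, and *Kif26a*, an atypical kinesin, at 2.80 FPKM. The dynein 2 subunit *Dync2li1* stood apart in B1, at 19.1 FPKM. B2 stood apart in 3.19% of all genes. The part of depth in these values was not tested.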

How the results depend on the processing

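Of 74 values under an alternative, 62 stayed within 1 SD, over the replicates for levels and over the 4 pairs of libraries for differences, or, for counts, within 1.5 times. That SD is wide for differences, and the mitotic median of 0.39 was 0.14 without B2 and 0.60 without B1, and the light chain median of -0.13 was -0.04 without A2. In TPM the medians were 10.6 for mitotic kinesins, 28.8 for transport motors and 0.835 for *Dnah1*, and the last was 0.437 FPKM without B2. The median log2 difference between cultures was -0.12 for transport motors without A1 and -0.14 without B1. For the other members it was 0.23 without A1, and it changed sign to -0.092 without A2 and -0.034 without B1, so no direction can be given for that group. The number of called members was 8 at a log2 difference of 0.5 and 1 without B2, which was *Kif1b* at -1.03. Transport motors with B below A numbered 14 without B2. With a single replicate, 43 to 44 members reached 1 FPKM, and the medians were 4.84 to 7.77 FPKM for mitotic kinesins, 14.6 to 19.5 for transport motors and 0.460 to 0.529 for *Dnah1*. The causes of these changes were not tested.

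The leaving out of B2 for counts of direction was chosen after seeing the data. With a minimum of 1 FPKM no axonemal member was left. Of the mean levels of the 43 members, scaling moved 0 and leaving out B2 moved 6 beyond the spread between replicates. No paired analysis was possible because there is 1 condition and no test. With 2 cultures and a shallow B2, differences below the technical spread could not be read.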
